A study of Mus musculus with 12 samples.

Results

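The glucocorticoid receptor, its reactivating enzyme and 6 of its commonly used target genes were followed in primary mouse hepatocytes. The set was defined by name as the 8 genes Nr3c1, Fkbp5, Tsc22d3, Sgk1, Dusp1, Klf9, Zbtb16 and Hsd11b1, and its members were all array probes whose transcript accession belongs to one of them. Of the 8 genes 7 were measured, among 17016 named genes of the array, through 14 of 41174 probes. No probe matched Zbtb16, a zinc finger repressor, and it was not analysed here. All 14 probes were well above background on all 12 arrays, so none entered the tests only through the group in which it was high.

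The hepatocytes came from C57BL/6 mice that were PGC-1alpha-/- or PGC-1alpha+/+, where PGC-1alpha is a transcriptional coactivator encoded by Ppargc1a. They were infected at a multiplicity of 5 with an adenovirus that encodes a hairpin RNA against the RNA-binding protein TLS (shTLS) or a control shRNA, and were collected after 24 h. The 4 groups were -/- cells with shTLS, -/- cells with the control hairpin, +/+ cells with shTLS and +/+ cells with the control hairpin, with 3 arrays each. Every culture, controls included, grew in medium with 100 nM dexamethasone, a synthetic glucocorticoid, and 100 nM insulin, so the receptor had its ligand in all 4 groups and no group shows the cells without it. Each of 6 mice, 3 per genotype, gave 1 culture per vector. Arrays with the same replicate number lay together on 1 slide of 4, and a group took the same place on every slide, so place on the slide and group cannot be told apart.

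The glucocorticoid receptor, the product of Nr3c1, rests in the cytoplasm in a complex with HSP90 and its cochaperones. On binding a steroid it moves to the nucleus, where it raises transcription from DNA elements made of a pair of inverted half-sites and restrains inflammatory genes driven by NF-kappaB and AP-1. In liver it is known for inducing enzymes of gluconeogenesis and amino acid breakdown. Hsd11b1 encodes the reductase that turns inactive cortisone, or 11-dehydrocorticosterone in mice, back into active hormone inside the cell.

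Before normalization the 6 shTLS arrays were dimmer, with 75th percentiles of 343.5 to 634.6 signal units, than the 6 control arrays with 810.4 to 1064, a gap that the authors' quantile normalization removes from the log2 values used below. Precision is limited by having 12 arrays. With the control hairpin, the probes for the 8 measured hepatocyte markers, such as Alb and Apob, averaged 12.21 to 13.06 on the log2 scale per -/- array and 12.26 to 13.62 per +/+ array. The Ppargc1a probe read 8.84, 8.91 and 8.67 in -/- cells with shTLS, against 9.71, 9.40 and 9.04 with the control hairpin. In +/+ cells Ppargc1a read 8.56, 10.99 and 8.42 with shTLS, against 9.03, 10.39 and 8.23 with the control hairpin. Its difference between -/- and +/+ cells passed no test, and the deleted stretch of the gene is not given in the sources used here, so the probe checks nothing about the genotype. The second +/+ mouse read highest of all mice with both vectors.

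The first question was what loss of TLS changes in the receptor and its targets. With shTLS, Hsd11b1 was higher and Dusp1, a phosphatase that switches off MAP kinases, was lower in all 6 mice, and the other 5 genes moved in both directions among mice for every probe. The share of all tested probes that moved one way in all 6 mice was not counted. Such a split is therefore only a description, here and for the genes below. No member probe was called, which means an adjusted p under 0.05 by limma, with the Benjamini-Hochberg adjustment made over the 24965 probes tested. This held in -/- cells, where 0.773% of all probes were called, in +/+ cells, where 0.989% were, and for the average over both genotypes, where 7.78% were. The fit so far had no term for mouse or slide. A second fit took the replicate number as a block, which removes what the 4 arrays of 1 slide share. These come from 1 mouse of each genotype, and the fit holds no term for the single mouse. With this block Hsd11b1 and Dusp1 were called in the average over genotypes. That is 2 of 14 member probes, while 28.8% of all probes were called in that fit, so the share among the members was below that of the array. In the fit with the block no member was called in -/- cells (5.86% of all probes) or in +/+ cells (12.5%). The median log2 difference of the 14 probes was 0.12 for the average over genotypes, against -0.021 for all tested probes, with 8 probes above 0 and 6 below. The members' values are in log2 units of normalized signal throughout, and levels of different probes are not set against each other.

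**Figure D1:**
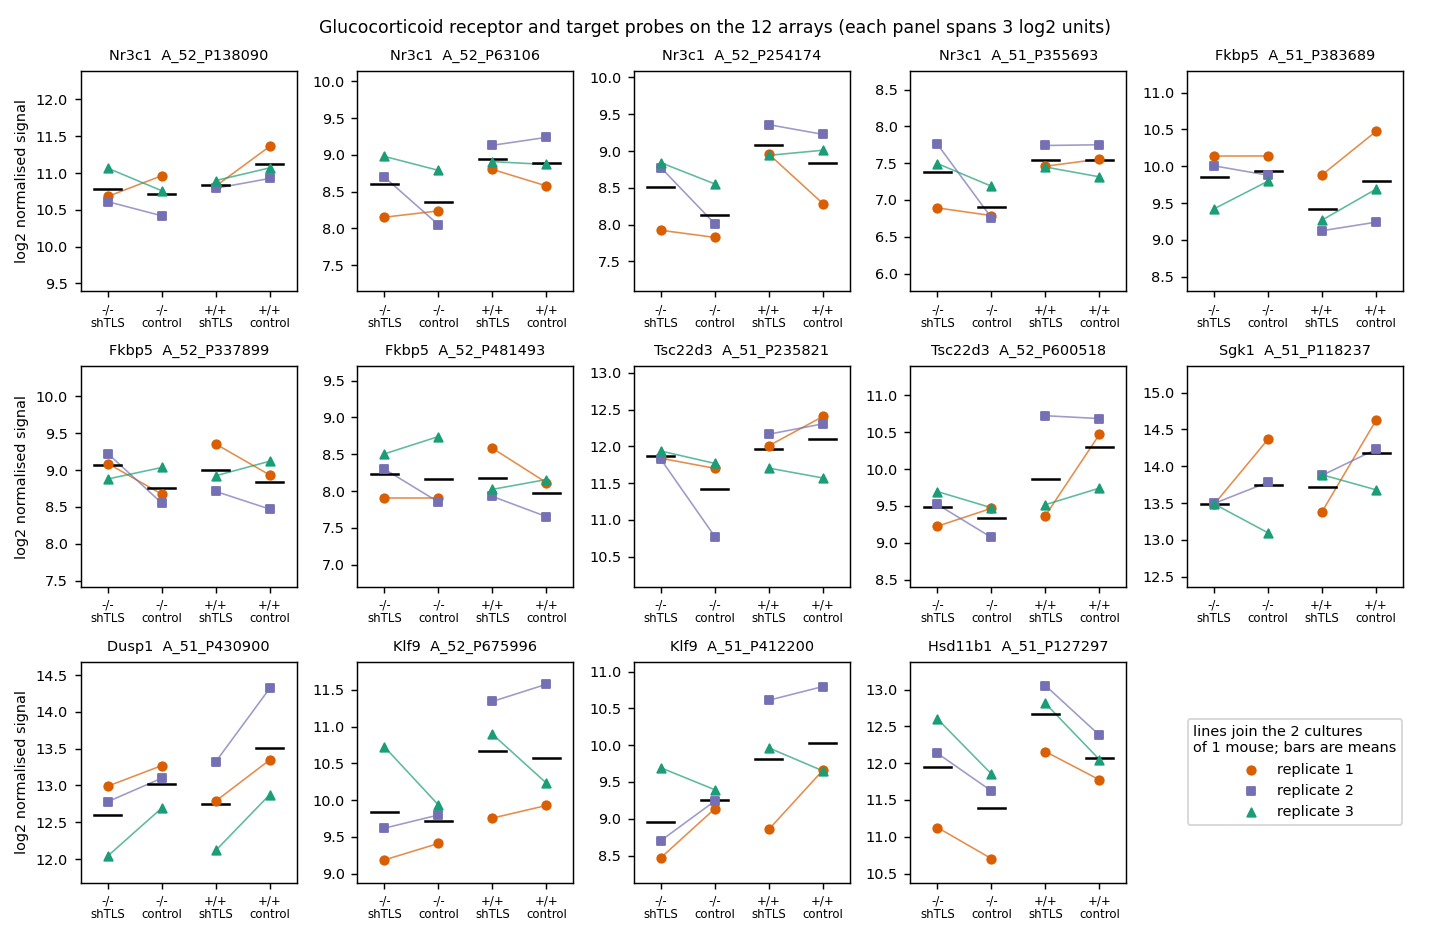
Log2 normalized signal (vertical axis) of the 14 probes of the 7 measured genes on the 12 arrays, by group; each panel spans 3 log2 units, each line joins the 2 cultures of 1 mouse and black bars are group means of 3 arrays. The lines of Hsd11b1 are higher with shTLS in all 6 mice and those of Dusp1 lower in all 6, while the lines of the other genes slope both ways.

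Hsd11b1 read 11.13, 12.13 and 12.60 in -/- cells with shTLS, against 10.70, 11.62 and 11.85 with the control hairpin. In +/+ cells it read 12.16, 13.05 and 12.81 with shTLS, against 11.77, 12.38 and 12.05 with the control hairpin. In -/- cells the levels differed between mice by more than between vectors. The groups overlapped in both genotypes, although each mouse had the higher value with shTLS. The differences within mice were 0.42, 0.51 and 0.75 in -/- mice and 0.38, 0.68 and 0.76 in +/+ mice. Averaged over both genotypes the log2 difference was 0.58 (SE 0.31, 95% interval -0.093 to 1.26, adjusted p = 0.237), a 1.5-fold higher signal. With the replicate block the same difference had an SE of 0.17 and an adjusted p of 0.0329. The positive sign is relative to the other probes of the array. When the arrays were scaled to their spike-in controls the difference was -0.26, while the median of all tested probes was -0.82.

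H6pd encodes the hexose-6-phosphate dehydrogenase of the endoplasmic reticulum, which supplies the NADPH that the Hsd11b1 reductase uses. It was taken from a list of 13 genes of corticosteroid metabolism and transport. In the quantile-normalized values it moved the opposite way to Hsd11b1, whose positive sign did not hold with spike-in scaling (-0.26). The brightest H6pd probe read 13.74, 13.54 and 12.16 in -/- cells with shTLS, against 14.75, 14.77 and 13.49 with the control hairpin. In +/+ cells it read 12.95, 12.51 and 12.06 with shTLS, against 14.60, 13.99 and 13.44 with the control hairpin. The +/+ groups did not overlap, and the value was lower with shTLS in 6 of 6 mice. H6pd fell by 1.35 on the log2 scale for this probe (SE 0.36, adjusted p = 0.0461) and fell by 1.60 for its second probe (SE 0.32, adjusted p = 0.0156), both averaged over genotypes. The call on the second probe held in all 12 fits that leave out 1 array, and that on the first probe in 3 of them. Over these fits the difference of the first probe lay between -1.56 and -1.10, with adjusted p up to 0.115.

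**Figure D2:**
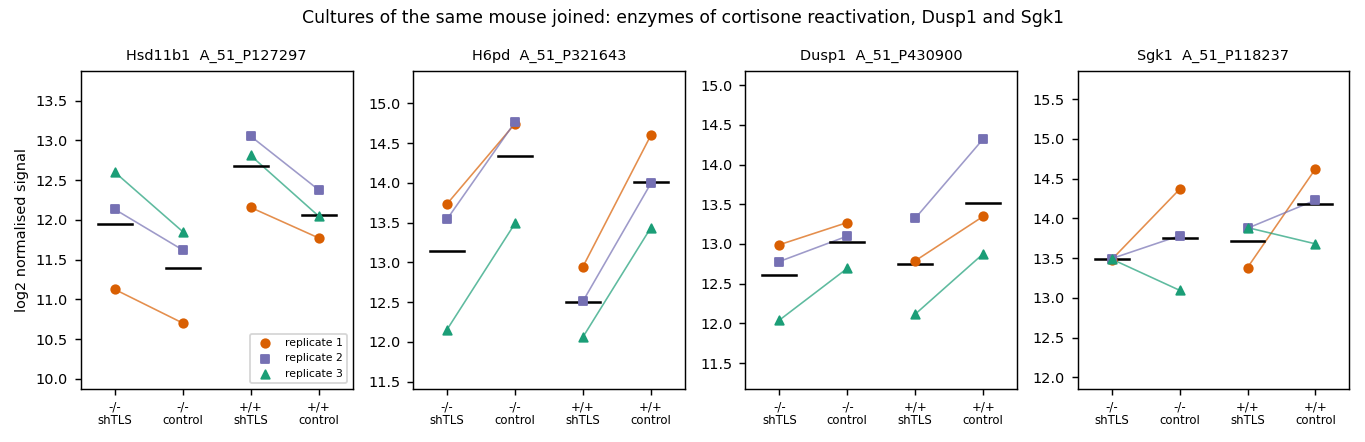
Log2 normalized signal (vertical axis) of Hsd11b1, H6pd, Dusp1 and Sgk1 in the 4 groups, 1 probe each, with lines joining the 2 cultures of 1 mouse and black bars for means of 3 arrays. With shTLS, Hsd11b1 lies higher and H6pd and Dusp1 lie lower in each of the 6 mice, whereas Sgk1 is lower in 4 and higher in 2.

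The receptor gene Nr3c1 had 4 probes, and none was called for shTLS. Its brightest probe read 10.68, 10.61 and 11.07 in -/- cells with shTLS, against 10.96, 10.42 and 10.76 with the control hairpin. In +/+ cells that probe read 10.82, 10.79 and 10.90 with shTLS, against 11.36, 10.93 and 11.07 with the control hairpin. The +/+ values were all lower with shTLS and the groups did not overlap, whereas the -/- values overlapped. It was the only 1 of the 14 member probes whose +/+ groups stood apart, against 20.0% of all tested probes. The log2 difference of this probe in +/+ cells was -0.28 (SE 0.24, 95% interval -0.82 to 0.25, adjusted p = 0.582). The other 3 probes ranged from 6.76 to 9.36 over all arrays, and their differences averaged over genotypes were 0.15, 0.31 and 0.24 against -0.10 for the brightest. Intervals of the averaged difference ran from -0.48 to 0.27 for the brightest probe and from -0.32 to 0.86 over the other 3. Those 3 probes followed one another over the 12 arrays (Pearson r 0.84 to 0.95, given as a description), while the brightest probe followed them less (0.16 to 0.36). Which part of the transcript each probe binds was not analysed here.

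Fkbp5 encodes a cochaperone that lowers the receptor's affinity for hormone and is itself a target of the receptor. Its brightest probe read 10.14, 10.01 and 9.42 in -/- cells with shTLS, against 10.14, 9.88 and 9.80 with the control hairpin. In +/+ cells that probe read 9.88, 9.12 and 9.27 with shTLS, against 10.47, 9.24 and 9.69 with the control hairpin. The groups overlapped in both genotypes. The averaged log2 difference was -0.23 (95% interval -0.78 to 0.32, adjusted p = 0.575), and the other 2 probes gave 0.23 and 0.14 with intervals from -0.36 to 0.66. The sign therefore depended on the probe, and for none of the 3 probes did all 6 mice move one way.

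Tsc22d3 encodes GILZ, a leucine zipper protein that carries part of the anti-inflammatory action of glucocorticoids. Its brightest probe read 11.84, 11.82 and 11.94 in -/- cells with shTLS, against 11.70, 10.77 and 11.77 with the control hairpin. In +/+ cells that probe read 12.01, 12.17 and 11.70 with shTLS, against 12.41, 12.31 and 11.57 with the control hairpin. The -/- groups did not overlap, with all 3 mice higher with shTLS, and the second -/- control culture was the lowest of the 12. No other member probe had -/- groups that stood apart, so 1 of 14 did, against 18.9% of all tested probes. The log2 difference was 0.45 in -/- cells (95% interval -0.27 to 1.17, adjusted p = 0.605) and -0.13 in +/+ cells (95% interval -0.85 to 0.59). The second probe read 9.22 to 9.69 in -/- cells with shTLS and 9.07 to 9.47 with the control hairpin, and 9.37 to 10.72 in +/+ cells with shTLS and 9.74 to 10.69 with the control hairpin. Its averaged difference was -0.14 (95% interval -0.74 to 0.45).

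Dusp1 is induced by glucocorticoids and by stress and dephosphorylates p38 and JNK. It read 12.99, 12.78 and 12.04 in -/- cells with shTLS, against 13.27, 13.10 and 12.69 with the control hairpin. In +/+ cells it read 12.79, 13.32 and 12.12 with shTLS, against 13.35, 14.32 and 12.88 with the control hairpin. The third mouse of each genotype was lowest with both vectors and the second +/+ mouse highest, so the groups overlapped while every pair went down with shTLS. Within mice Dusp1 differed by -0.28, -0.32 and -0.65 in -/- mice and by -0.56, -1.0 and -0.76 in +/+ mice. The averaged log2 difference was -0.59 (SE 0.31, 95% interval -1.27 to 0.082, adjusted p = 0.230), and the adjusted p was 0.0406 with the replicate block (SE 0.18). In the promoter table of RefSeq (build GRCm38.p6), which holds 250 bases before to 50 after each start, the Dusp1 window held 1 cAMP response element, TGACGTCA, at 143 to 136 bases before the start. This palindrome reads the same on both strands and was found in 588 of 32851 windows, or 1.79%. The window held no match to the palindromic glucocorticoid element described below. The 250 bases before the Dusp1 start, at chr17:26508473-26508722 on the minus strand, are shown because Dusp1 is one of the pair of members called with the block, with the cAMP element in capitals.
Dusp1: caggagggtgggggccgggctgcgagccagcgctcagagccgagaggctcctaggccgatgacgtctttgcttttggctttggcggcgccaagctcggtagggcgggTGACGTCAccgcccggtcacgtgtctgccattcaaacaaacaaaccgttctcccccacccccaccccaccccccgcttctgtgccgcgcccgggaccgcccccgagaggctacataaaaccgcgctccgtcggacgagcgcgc

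Sgk1 encodes a kinase that regulates ion channels and is induced by both glucocorticoids and mineralocorticoids. It read 13.48, 13.49 and 13.49 in -/- cells with shTLS, against 14.37, 13.78 and 13.10 with the control hairpin. In +/+ cells it read 13.38, 13.88 and 13.88 with shTLS, against 14.62, 14.23 and 13.68 with the control hairpin. The groups overlapped, and the spread over -/- mice was 0.01 (SD) with shTLS and 0.64 with the control hairpin. The first and second mice of both genotypes were lower with shTLS and the third of both was higher, with differences of -0.88, -0.29 and 0.39 in -/- mice and -1.24, -0.35 and 0.20 in +/+ mice. The averaged log2 difference was -0.36 (SE 0.25, 95% interval -0.91 to 0.19, adjusted p = 0.361, and 0.254 with the replicate block).

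Sgk1 was the member with a complete glucocorticoid element in a promoter window. The element searched was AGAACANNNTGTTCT, a pair of inverted half-sites AGAACA spaced by 3 bases, on both strands. It was found in 3 of 32851 promoter windows (0.00913%), and 1 of these is 1 of the 6 Sgk1 windows. A looser form, GNACANNNTGTNC, was in 156 windows (0.475%) and includes every match of the strict form. The half-site alone was in 6233 windows (19.0%), and in 4 of the 13 windows of the 6 members with an entry, all measured members but Nr3c1. The Sgk1 match lies 189 to 175 bases before one of its annotated starts, and 951 bases before the next start downstream. A match is a description of the letters and no measure of binding. The 250 bases before that start, at chr10:21993640-21993889 on the plus strand of GRCm38.p6 from RefSeq, are given with the element in capitals.
Sgk1: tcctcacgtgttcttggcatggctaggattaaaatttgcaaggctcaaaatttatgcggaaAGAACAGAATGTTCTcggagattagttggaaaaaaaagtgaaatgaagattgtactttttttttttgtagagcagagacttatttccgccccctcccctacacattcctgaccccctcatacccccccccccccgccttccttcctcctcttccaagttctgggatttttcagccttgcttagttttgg

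Klf9 encodes a zinc finger repressor that glucocorticoids and thyroid hormone induce. Its brightest probe read 9.19, 9.62 and 10.73 in -/- cells with shTLS, against 9.41, 9.80 and 9.94 with the control hairpin. In +/+ cells that probe read 9.76, 11.34 and 10.90 with shTLS, against 9.93, 11.57 and 10.23 with the control hairpin. The groups overlapped, and as for Sgk1 the first and second mice of both genotypes were lower with shTLS while the third of both was higher. The averaged log2 difference was 0.11 (95% interval -0.74 to 0.96), and the second Klf9 probe gave -0.26 (95% interval -1.03 to 0.50) with the same split of mice.

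**Figure D3:**
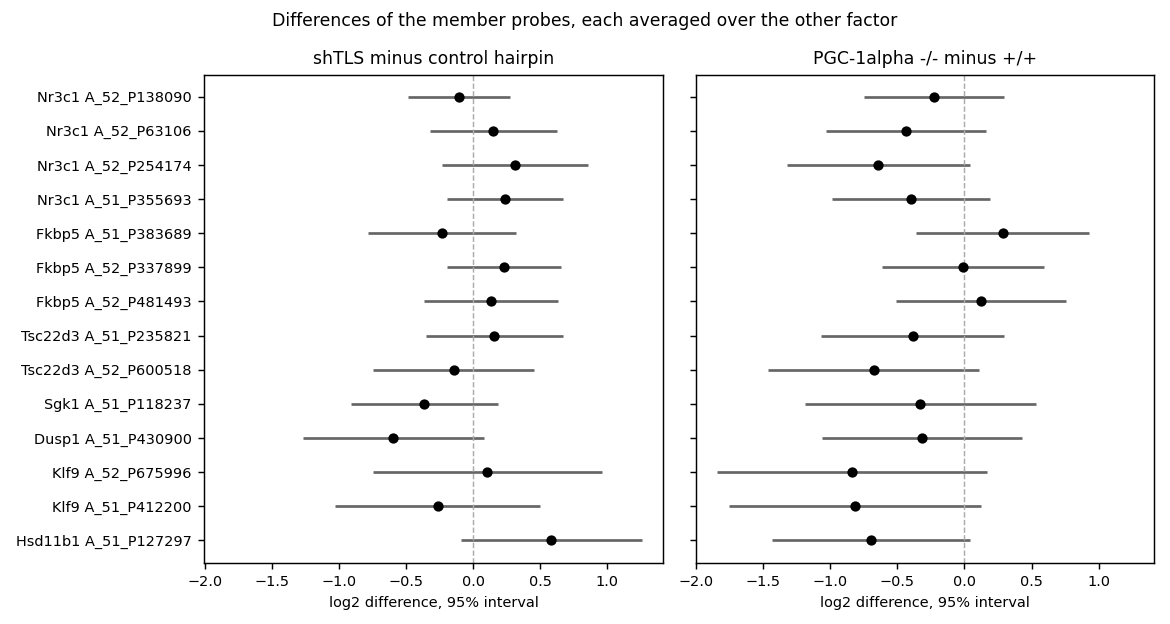
Log2 differences (horizontal axes) of the 14 member probes with 95% intervals from the limma fits, for shTLS minus the control hairpin (left) and PGC-1alpha -/- minus +/+ (right), each averaged over the other factor on 12 arrays. All 14 intervals include 0 on both sides, and 12 of the 14 genotype differences are negative. The left fit has no term for mouse or slide, while the right fit has the mouse as a random block. With the replicate block, not drawn here, Hsd11b1 and Dusp1 were called for shTLS.

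The next question was whether cells without PGC-1alpha hold the receptor and its targets at another level. With the control hairpin 12 of 14 member probes read lower in -/- than in +/+ cells, with a median log2 difference of -0.58, against 0.014 for all tested probes. None was called (adjusted p = 1.0 for each), and 0.0801% of all probes were called in this comparison, or 0.172% with the replicate block. At an unadjusted p under 0.05, 2 of the 14 passed, against 3.14% of all tested probes, a Tsc22d3 probe at -0.96 (95% interval -1.81 to -0.12) and an Nr3c1 probe at -0.63 (95% interval -1.24 to -0.019). That Tsc22d3 probe read 9.47, 9.07 and 9.47 in -/- cells, against 10.47, 10.69 and 9.74 in +/+ cells. The Nr3c1 probe read 6.79, 6.76 and 7.19 in -/- cells, against 7.55, 7.75 and 7.31 in +/+ cells. Both pairs of groups stood apart without overlap, as did 1 probe of Klf9, which read 9.14, 9.24 and 9.39 in -/- cells and 9.66, 10.80 and 9.65 in +/+ cells. The groups of these 3 of 14 probes stood apart, against 6.99% of all tested probes.

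With shTLS, 11 of the 14 probes read lower in -/- than in +/+ cells, with a median of -0.20. None was called, against 0.0721% of all probes, or 0.156% with the block. None had an unadjusted p under 0.05, against 540 of 24965 probes. The groups of the 3 probes named above overlapped with shTLS, with differences of -0.39 (Tsc22d3), -0.17 (Nr3c1) and -0.85 (Klf9). Another Nr3c1 probe, at -0.57, had groups that stood apart, and the share of all probes that did was not counted. Averaged over both vectors, with the mouse as a random block, 12 of 14 were lower, the median was -0.39 and no member was called, against 0.0881% of all probes, or 0.505% with the replicate block. Klf9 showed the lowest values in that average, -0.84 (95% interval -1.85 to 0.17) and -0.82 (95% interval -1.75 to 0.12) for its 2 probes. Hsd11b1 gave -0.70 (95% interval -1.44 to 0.041), and each -/- array read lower than the +/+ array of the same number with both vectors. The same held for both Klf9 probes and for 1 Nr3c1 probe. The 4 Nr3c1 probes gave -0.23, -0.44, -0.64 and -0.40, with intervals reaching from -1.33 to 0.29. Fkbp5 was the exception, with differences of 0.28, -0.0095 and 0.13 and intervals that reach from -0.61 to 0.93. The intervals of the 14 probes reached from -1.85 to 0.93, so similar levels in the genotypes were not shown either.

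Markers of macrophages and Kupffer cells moved with this comparison, and their part in it was not tested. With the control hairpin all 11 measured markers read higher in -/- than in +/+ cells, by a median of 1.93, and the same 11 did so with shTLS, by a median of 1.11. None of them was called. Clec4f and C1qa, 2 of the 11, were tested only because they were well above background throughout a -/- group. The mean log2 level of the 11 probes was 8.23 to 11 per array in -/- cells and 6.79 to 9.45 in +/+ cells with the control hairpin. It was 7.49 to 10.20 in -/- cells and 6.58 to 8.41 in +/+ cells with shTLS. No marker was at background throughout, since 9 of the 11 were well above it on all 12 arrays. Hepatocyte markers gave a median of -0.029 with the control hairpin, 4 of 8 higher and 4 lower in -/- cells. In cultures measured as a whole, fewer cells of a type and less RNA per cell cannot be told apart.

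Whether the effect of shTLS depends on the genotype was asked with the difference of both effects. No probe of the array was called (0.0% of 24965 by limma, 66 at an unadjusted p under 0.05), and no member was among those at an unadjusted p under 0.05. The differences of the member probes ran from -0.13 to 0.59. Their intervals, from the fit without a block, reached from -1.66 to 1.77. Hsd11b1 gave -0.046 (SE 0.61, 95% interval -1.40 to 1.31) and Dusp1 0.35 (SE 0.61, 95% interval -1.0 to 1.71). With the replicate block the SE was 0.34 for Hsd11b1 and 0.37 for Dusp1.

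Genes around the receptor were counted in lists of 1 brightest probe per gene. Of the 17 tested genes that glucocorticoids induce in many cell types, none was called for shTLS averaged over genotypes, against 7.78% of all probes. Their median was -0.18, with 7 positive and 10 negative values. In the fit with the block, which called 28.8% of all probes, 3 of the 17 rose (Zfp36, Gadd45b and Sesn1) and 3 fell (Mt1, Mt2 and Klf15). A dimmer probe of Zfp36, which encodes an RNA-binding protein that destabilizes cytokine mRNAs, was called without the block, at 0.75 (adjusted p = 0.0220). Klf15, a zinc finger factor of fasting metabolism, gave -1.43 (adjusted p = 0.0709, and 0.00921 with the block) and Gadd45b, a stress protein, gave 1.23 (adjusted p = 0.0623, and 0.00473 with the block). Klf15 read 8.61, 8.07 and 7.34 in -/- cells with shTLS, against 10.41, 9.06 and 8.61 with the control hairpin, and these groups met at 8.61. In +/+ cells Klf15 read 8.02, 7.93 and 8.14 with shTLS, against 11.03, 8.80 and 8.80 with the control hairpin, without overlap. A second Klf15 probe gave -0.20 (95% interval -0.86 to 0.46). Values of the induced list thus lay on both sides of 0 in the same cells.

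Of 15 tested metabolic genes that glucocorticoids induce in liver, 1 fell and none rose for shTLS averaged over genotypes, against 7.78% of all probes called, so the share is near that of the array. The median was -0.65 with 9 negative values, 1 of them of Sds, which was tested only because it was well above background throughout the -/- control group. The gene that fell was Ass1, argininosuccinate synthase of the urea cycle, at -0.65 (SE 0.17, adjusted p = 0.0442). With the block, which called 28.8% of all probes, 2 rose (Pdk4 and Ppp1r3c) and 4 fell (Ass1, Slc37a4, Gpt2 and Igfbp1). Hepatocyte markers read lower in the same comparison, 7 of 8 with a median of -0.54 and 2 called with the block, and their part in these values was not tested. Ass1 was called in 1 of 12 fits with an array left out, with values from -0.74 to -0.57. Tat, the tyrosine aminotransferase long used as a glucocorticoid readout in liver, read 7.77, 8.21 and 8.79 in -/- cells with shTLS, against 9.63, 9.03 and 8.31 with the control hairpin. In +/+ cells Tat read 9.36, 8.98 and 8.95 with shTLS, against 11.53, 9.54 and 8.52 with the control hairpin. The first and second mice of both genotypes were lower and the third was higher with shTLS, the split seen for Sgk1 and Klf9. Tat was chosen for display after its values were seen.

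Glucocorticoid-repressed inflammatory genes held the largest rises of these lists. Of 10 tested genes 3 rose with shTLS averaged over genotypes and none fell, against 7.78% of all probes called. Over all 14 genes with a probe, taken with no filter on dim probes, 6 values were positive and 8 negative, with a median of -0.35. Il6, a cytokine of the acute phase response, gave a log2 difference of 3.22 (SE 0.46, adjusted p = 0.00290), Ccl5, a T cell chemokine, one of 2.83 (SE 0.42, adjusted p = 0.00392) and Cxcl10, an interferon-induced chemokine, one of 1.87 (SE 0.42, adjusted p = 0.0247). Il6 read 9.01, 9.82 and 10.45 in -/- cells with shTLS, against 6.56, 7.86 and 6.14 with the control hairpin. In +/+ cells Il6 read 9.09, 10.85 and 10.25 with shTLS, against 5.61, 7.58 and 6.37 with the control hairpin. The groups stood apart in both genotypes. Il6 and Ccl5 were called within +/+ cells too, at 3.54 (adjusted p = 0.0277) and 3.06 (adjusted p = 0.0395), while in -/- cells they gave 2.91 (adjusted p = 0.0826) and 2.59 (adjusted p = 0.0936), called with the block only. The calls for Il6 and Ccl5 held in all 12 fits that leave out 1 array, and that for Cxcl10 in 9 of them. The adjusted p of Cxcl10 was 0.0619 without the second -/- shTLS array, 0.0664 without the first -/- control array and 0.0603 without the first +/+ control array. The other 7 tested genes were not called. With the block Mmp13 rose as well and Ccl2 fell. Macrophages make these transcripts too, and their markers gave a median of -0.73 with shTLS, with 0 of 11 positive (Clec4f among them was tested only through a control group), none called without the block and 3 lower with it, and their part in the rises was not tested.

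**Figure D4:**
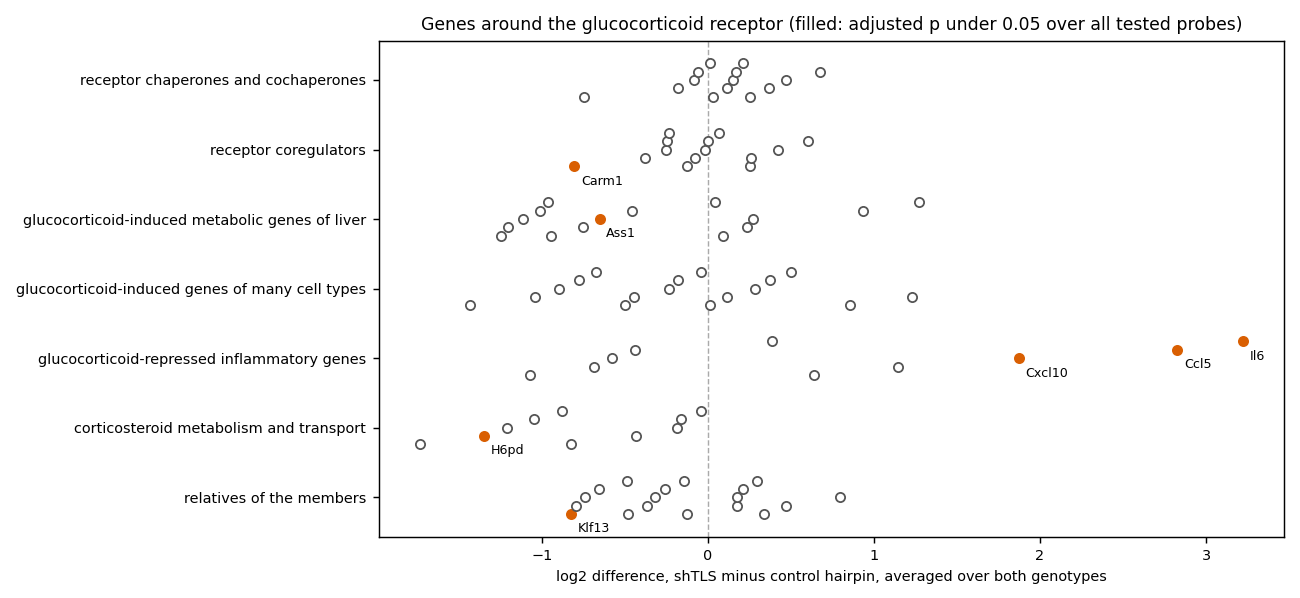
Log2 difference of shTLS minus the control hairpin, averaged over both genotypes (horizontal axis), for each tested gene of 7 lists around the glucocorticoid receptor (rows), 1 brightest probe per gene on 12 arrays. Filled points are called by limma at an adjusted p under 0.05 over all tested probes and are named; Il6, Ccl5 and Cxcl10 lie highest, and the named points of H6pd, Carm1, Ass1 and Klf13 lie below 0.

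Genes of corticosteroid metabolism and transport had negative values with shTLS, averaged over genotypes, in 11 of the 12 genes with a probe, taken with no filter on dim probes, with a median of -0.85. In -/- cells 11 of the 12 were negative, with a median of -1.01, and in +/+ cells 10 were, with a median of -0.52. Of the 10 tested genes only H6pd was called, against 7.78% of all probes, and with the block, which called 28.8%, 3 fell, H6pd, Srd5a1 and Srd5a2, the last pair, named after their values were seen, being the 5-alpha-reductases that begin the breakdown of glucocorticoids. Srd5a1 gave -0.88 (adjusted p = 0.0801, and 0.0174 with the block) and Srd5a2 gave -1.74 (adjusted p = 0.147, and 0.0154 with the block). The hepatocyte markers, with the values given above, moved with this list too, and their part was not tested.

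Between genotypes, no tested gene of the 7 lists was called by its brightest probe without the block. Abcb1b, a drug and steroid exporter of the P-glycoprotein family, read 13.51, 14.01 and 13.60 in -/- cells with shTLS, against 11.61, 12.06 and 12.36 in +/+ cells with shTLS. With the control hairpin Abcb1b read 14.52, 14.72 and 13.56 in -/- cells, against 11.01, 12.67 and 11.79 in +/+ cells. The genotypes did not overlap with either vector. The averaged difference was 2.07 (95% interval 1.15 to 2.99), with an adjusted p of 0.188, and of 0.0183 with the replicate block.

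The receptor's chaperones and cochaperones gave a median of 0.13 over 14 tested genes for shTLS averaged over genotypes. None was called, against 7.78% of all probes. With the block, which called 28.8% of all probes, 1 rose (Ppp5c) and 1 fell (Fkbp4). Fkbp4, the cochaperone that competes with Fkbp5 for HSP90 and favours the active receptor, gave -0.75 (95% interval -1.36 to -0.14, adjusted p = 0.114, and 0.0264 with the block). Ppp5c, a phosphatase of the same complex, gave 0.67 (95% interval 0.27 to 1.08, adjusted p = 0.0504, and 0.0223 with the block), while its second probe gave -0.28 (95% interval -0.85 to 0.29). Of 14 tested coregulators 1 fell, Carm1, an arginine methyltransferase, at -0.80 (SE 0.20, adjusted p = 0.0387), and none rose, against 7.78% of all probes called, while with the block (28.8%) Ep300 rose and Carm1 fell. Its call was kept in 2 of 12 fits with an array left out, with values from -0.93 to -0.67, and a second, dimmer Carm1 probe gave -0.022. Carm1 read 8.53, 8.61 and 8.45 in -/- cells with shTLS, against 9.13, 9.58 and 9.08 with the control hairpin. In +/+ cells Carm1 read 7.96, 9.0 and 8.56 with shTLS, against 9.21, 9.50 and 9.46 with the control hairpin. The groups did not overlap in either genotype.

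Of 18 tested relatives of the members 1 fell with shTLS averaged over genotypes and none rose, against 7.78% of all probes called. With the block 5 fell, Klf13, Fkbp8, Fkbp1a, Tsc22d1 and Tsc22d4, against 28.8% of all probes. Over the 19 relatives with a probe, taken with no filter on dim probes, 8 values were positive and 11 negative, with a median of -0.14. Klf13, of the same family as Klf9, gave -0.82 (SE 0.22, adjusted p = 0.0446) and was called in 1 of 12 fits with an array left out, with values from -0.92 to -0.65.

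For each member the 3 genes most alike over the 12 arrays were picked from all named genes by Pearson correlation of the brightest probes. These are descriptions, with arrays that share mice, slides and groups. Dusp1 was most like Tbc1d14 (r 0.98), F3 (0.97) and Rab24 (0.97), Klf9 most like Tatdn1 (0.99), Gabarap (0.96) and Commd6 (0.96), and Fkbp5 most like Tmem106a (0.97), Apol7c (0.97) and Smarca2 (0.97). Hsd11b1 was most like Cul2 (0.95), Nup54 (0.95) and Cpeb4 (0.93), Sgk1 most like Bckdha (0.93), Cept1 (0.93) and Oplah (0.93), Nr3c1 most like Vtn (0.88), Morn1 (0.86) and Tmem106c (0.86), and Tsc22d3 most like Ccdc91 (0.87), Nrbf2 (0.86) and Mapk4 (0.86). Among the brightest probes of the members, those of Klf9 and Hsd11b1 ran together (r 0.82). That of Fkbp5 ran against both (-0.88 with Klf9 and -0.79 with Hsd11b1), so these brightest probes did not share 1 pattern over the arrays. The brightest Fkbp5 probe followed the other Fkbp5 probes little (r 0.35 and 0.14), while those followed each other more (0.70). Whether the dimmer Fkbp5 probes also ran against Klf9 and Hsd11b1 was not tested, so the opposition is not shown for the gene. The brightest Nr3c1 probe was most like that of Tsc22d3 among the members (0.63), but it followed the other Nr3c1 probes by only 0.16 to 0.36.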

How the data were processed

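Total RNA of 12 cultures was labelled with Cy3 and hybridized, 1 sample per array, to Agilent whole mouse genome arrays, 4 on each of 3 slides. Spots were read with Agilent Feature Extraction 10.1.1.1, per the submitters' processing notes. For each array the deposited file gives, per the file headers, each spot's processed signal as an intensity on a linear scale, its median and background intensity, and other columns of flags. The deposited table holds log2 values, which the authors made, per the series' design text, by setting signals under 1 to 1 and by quantile normalization. Each of its columns correlated with the log2 processed signal of its array by at least 0.998, which fixes scale and direction. Its rows were matched to 41174 probes. Probes were named through RefSeq accessions (24375 matched, 16799 did not), using a gene table of another build than the files' for names only.

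Fits used limma 3.58.1 and statmod 1.5.0 in R 4.3.3, as 4 group means on all 12 arrays with two-sided moderated tests. The 24965 tested probes are those flagged well above background in every replicate of 1 or more groups. A call means p under 0.05 after Benjamini-Hochberg adjustment across them. Genotypes averaged over vectors were compared with the mouse as a random block (correlation 0.584). With 3 against 3 arrays an exact test of 1 probe cannot go below p = 0.1. The members and the lists were chosen with earlier results of these data known. All member probes are named. In a list, up to 4 called genes with the largest change are named, or the 2 with the largest change where none is called. A gene outside these rules is marked in the text, and members of a list that are counted with the block are named with their count. The lists cover chaperones, coregulators, induced metabolic genes, genes induced in many cell types, repressed inflammatory genes, corticosteroid metabolism, relatives of the members and markers of 5 cell types. The same replicate number means the same mouse within a genotype, per the labels' source names, and the same slide. Deviations from group means correlated by 0.451 to 0.670 between arrays of 1 mouse, by 0.216 to 0.639 where only the number was shared, and by -0.552 to 0.104 where it was not. Alternatives were quantile normalization redone from the array files, 75th percentile and spike-in scaling, normexp background, 2 other filters, the replicate number or mouse as a block, only the groups compared, and each array left out. Only the fit without a block was run on simulated data, in which the arrays were independent. The fits with a block were not tested in this way, and variation shared within mice or slides was not simulated. Some genes, the check of the targeted gene among them, are not reported here.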

Additional observations from a re-analysis of the deposited data

How the results depend on the processing

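Member probes were called under 3 of the alternatives only, and leaving out each array in turn gave 0 to 0 called members in all 7 comparisons. With the replicate block, which pairs arrays by slide and number and not by single mouse, 2 were called for shTLS averaged over genotypes. That fit called 28.8% of all probes in this comparison. With the mouse as a random block 2 were called there, against 37.5% of all probes. In +/+ cells 1 was called, Dusp1, against 19.5% of all probes. With scaling to 8 spike-in probes the median of all tested probes for shTLS was -0.82 (averaged) and -0.86 (+/+ cells), against -0.021 and -0.014. It called 6 member probes in +/+ cells and 10 in the average, all lower with shTLS, while 24.4% and 55.7% of all probes were called. All 14 member probes were negative for the average under that scaling, 8 of them with another sign than before. Probes whose sign turned and that were then called were those of Nr3c1 (second probe, -0.91 in +/+ cells and -0.74 averaged), Fkbp5 (-0.66 and -0.73 for its 2 dimmer probes) and Tsc22d3 (-0.70). Of 2016 alternative values of member probes 1995 kept their side of the threshold, 102 of these with another sign at values called under neither setting. Calls of list genes were less stable, with 67 of 1949 alternative values losing a call. Cxcl10 lost its call with spike-in scaling (1.0, adjusted p = 0.0783), Ass1 with 75th percentile scaling (-0.61, adjusted p = 0.0603), and H6pd's first probe and Klf13 with no filter on dim probes. The cause was not tested. The replicate block changed no other member call. Over all probes, shTLS averaged over genotypes called 1942 (1130 higher, 812 lower), 7183 with the replicate block and 9353 with the mouse as a block, and 2385 with 75th percentile scaling (1759 higher, 626 lower). Fitting only the groups compared gives no value for averages or the interaction, and called 45 in +/+ cells. In +/+ cells 247 were called, against 3110, 4864 and 380, and in -/- cells 193, against 1463, 2757 and 287. Requiring all 12 arrays above background gave 116 in +/+ and 96 in -/- cells.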

Other observations

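Cell type markers that the report does not use gave these values. Endothelial markers read higher in -/- than in +/+ cells in 7 of 8 tested genes averaged over both vectors, with a median log2 difference of 0.76, and stellate markers in 7 of 8 genes with a probe, taken with no filter on dim probes, with a median of 0.75. Clec4g, an endothelial marker, was tested only through the -/- groups. Cholangiocyte markers read lower with shTLS in 4 of 6 genes with a probe, averaged over both genotypes, with a median of -0.80. These values were taken with no filter on dim probes. Cftr, 1 of the 6, passed the filter only through the -/- shTLS group. Spp1, the secreted phosphoprotein osteopontin, gave -1.61 (95% interval -2.60 to -0.63, adjusted p = 0.0520, and 0.00313 with the replicate block) and Krt19, a keratin of bile duct cells, gave -2.11 (95% interval -4.20 to -0.021, adjusted p = 0.176, and 0.0142 with the block). None of these markers was called without the block.

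Metallothioneins Mt1 and Mt2, which bind zinc and respond to glucocorticoids and metals, read lower with shTLS in 6 of 6 mice. Mt1 gave -1.04 (95% interval -1.96 to -0.13, adjusted p = 0.134, and 0.0341 with the block) and Mt2 gave -0.90 (95% interval -1.91 to 0.12, adjusted p = 0.226, and 0.0275 with the block). Pdk4, the pyruvate dehydrogenase kinase of fasting, read higher with shTLS in 6 of 6 mice, by 1.27 (95% interval 0.46 to 2.09, adjusted p = 0.0597, and 0.0231 with the block), so among genes that glucocorticoids induce some had values below 0 and others above 0 in the same mice. Mt1, Mt2 and Pdk4 were chosen after their values were seen.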
